A study of Mus musculus with 12 samples.

Results

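The set described here held 41 genes that interferons are known to induce, taken by symbol from the 52459 genes counted. The choice did not use their values, but it was made with earlier results of these data known. Type I and type II interferons bind receptors at the cell surface and signal through JAK kinases and STAT proteins. The activated complexes bind the interferon-stimulated response element (ISRE) or the gamma-activated site (GAS) of target genes. The induced proteins sense foreign nucleic acids, block the replication of viruses and feed back on the pathway.

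*Tpp1* encodes the lysosomal protease lost in late-infantile neuronal ceroid lipofuscinosis. Male homozygous *Tpp1^–/–* mice of a gene-targeted line and their male wild type siblings, all 4 months old, were compared in cerebellum (Cb-T and Cb-N) and in forebrain with midbrain (F/M-T and F/M-N). The methods of the study describe RNA of both areas from 3 mice of each genotype, so Cb and F/M libraries may share mice. The labels do not tell which ones do, and areas were compared without pairing. Each of the 4 groups had 3 libraries of whole tissue, with 21428379 to 24458189 counts per library. As a check of the labels, *Tpp1* stood at 112, 114 and 112 CPM (TMM-normalized counts relative to library size) in Cb-N, 28.0, 31.0 and 30.0 in Cb-T, 94.3, 88.7 and 87.7 in F/M-N, and 23.9, 21.8 and 23.3 in F/M-T. It was lower in every T library than in any N library of either area. The tissue labels were checked in the same way. Summed over 12 cerebellar markers, of which *Itpr1* was the most abundant, the level was 12670, 12700 and 12510 CPM in Cb-N, 10650, 10600 and 10530 in Cb-T, and 926.5 to 1053 in F/M. Summed over 12 forebrain markers, with *Nrgn* the most abundant, it was 174.5 to 233.1 CPM in Cb and 1674 to 1849 CPM in F/M.

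The set as a whole was higher in *Tpp1^–/–* mice in both areas. A gene was taken as upregulated or downregulated, and called a DEG, when its edgeR p-value adjusted over all genes tested was below 0.1 and its change was at least 1.5-fold. These p-values measure the spread between the libraries sequenced here. All 41 members passed the filter on low counts in both areas. In Cb-T, 29 of 41 members were upregulated, against 8.54% of the 16382 genes tested. In F/M-T, 34 of 41 were upregulated, against 2.63% of 16665 genes. Both areas shared 26 of these DEGs, that is, 26 of the 29 in Cb and 26 of the 34 in F/M, where 1.69% of the 15706 genes tested in both areas were upregulated in both. No member was downregulated in either area by edgeR, DESeq2 or limma-voom, against 2.66% of all genes in Cb and 0.858% in F/M. At an unadjusted p below 0.05 without a limit on the fold change, 2 members lay lower in Cb-T (*Stat2* and *Samhd1*) and 0 in F/M-T. In bulk tissue, more cells that express a gene and more RNA per cell cannot be told apart.

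The median log2 fold change of the members was 0.84 in Cb (range -0.41 to 2.71), beside 0.01 over all genes tested. In F/M it was 0.96 (range -0.05 to 2.77), beside 0.01. Every T library lay above every N library for 35 members in Cb, against 27.7% of all genes, and for 39 members in F/M, against 13.3%. For 34 members this was so in both areas, against 8.45% of the genes tested in both. The median member level, per kb of exon, was 1.00 CPM per kb in Cb-N, 1.60 in Cb-T, 1.04 in F/M-N and 2.04 in F/M-T. Summed over the 41 members, the Cb-N libraries stood at 344, 337 and 327 CPM, and the Cb-T libraries at 444, 448 and 455 CPM. In F/M-N the sum was 248, 247 and 241 CPM, and in F/M-T it was 459, 458 and 442 CPM. The groups did not overlap in either area.

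**Figure D1:**
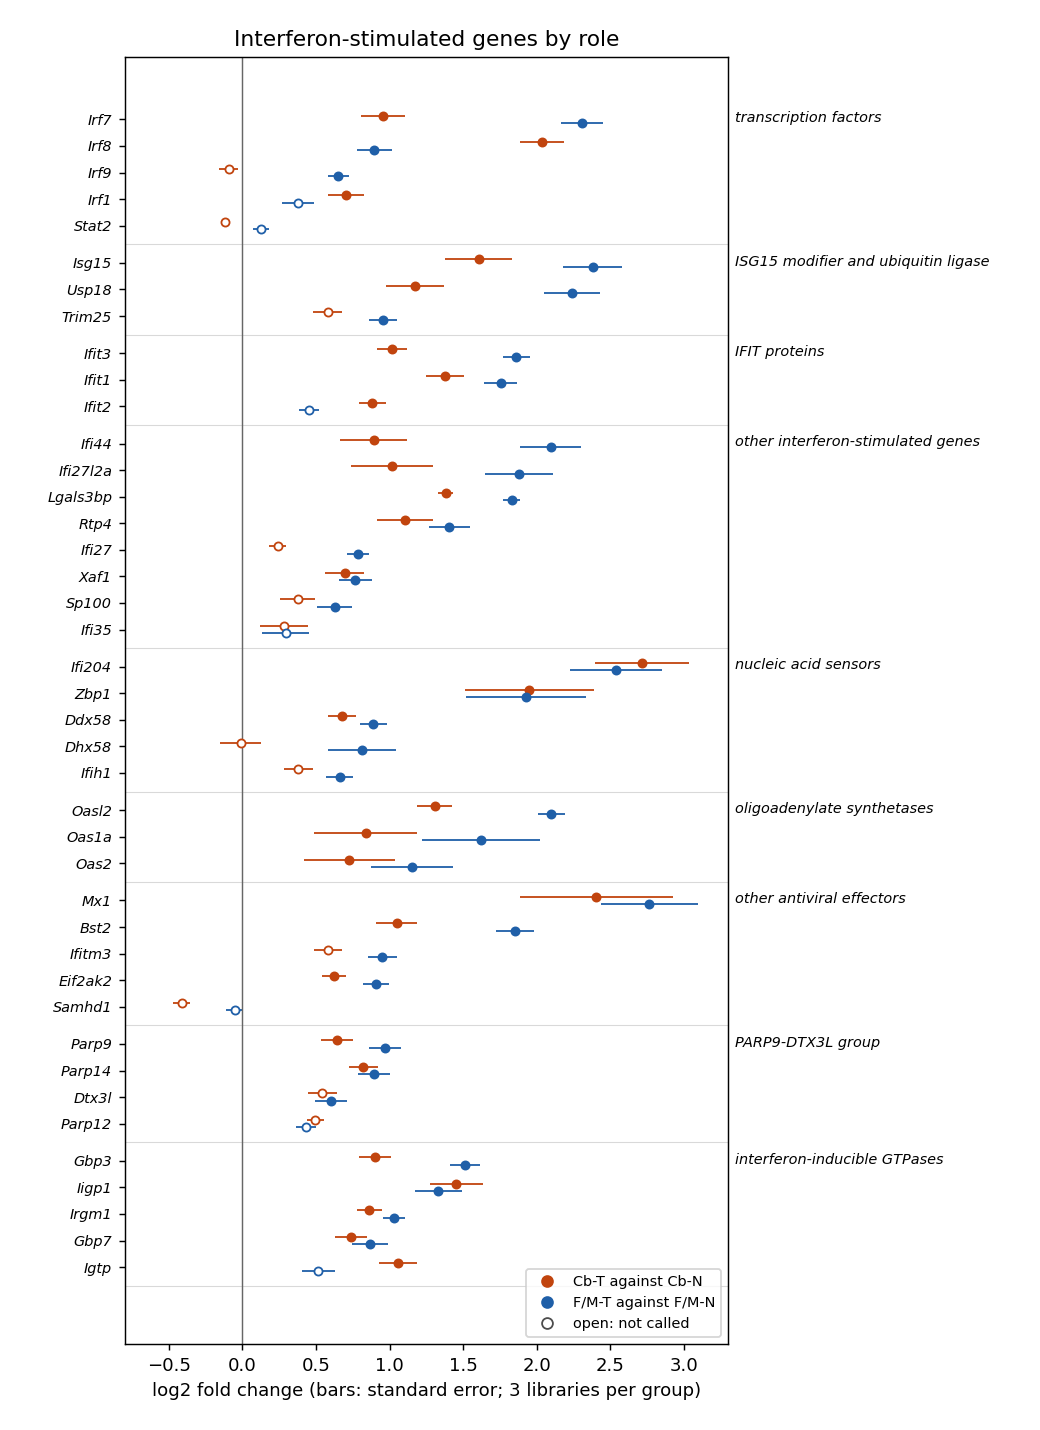
Log2 fold change (T against N) with its standard error for each of the 41 members in Cb and in F/M, grouped by role; filled points passed the limits for a DEG (29 in Cb, 34 in F/M).

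The log2 fold changes of most members were larger in F/M than in Cb. For 32 of 41 members the difference between areas (the log2 fold change in Cb minus that in F/M, tested as an interaction over all 12 libraries) was negative, with a median of -0.31, beside 0.03 over all 17482 genes tested. By this test 9 members responded less in Cb than in F/M, against 1.2% of all genes, and 1 member, *Irf8*, responded more in Cb, against 6.41% of all genes. The 9 were *Irf7*, *Ifi44*, *Usp18*, *Ifit3*, *Dhx58*, *Bst2*, *Oasl2*, *Irf9* and *Gbp3*. Of the 3 members that were DEGs in Cb but not in F/M (*Irf1*, *Igtp* and *Ifit2*, the last named after its values were seen), 0 passed both limits of the interaction test of edgeR, with unadjusted p of 0.037, 0.0025 and 0.00046. The adjusted p of *Igtp* (0.016) and *Ifit2* (0.004) lay below the limit, but their differences of 1.47-fold and 1.37-fold did not reach 1.5-fold, whereas that of *Irf1* had an adjusted p of 0.12. *Igtp*, with a difference of 0.56 ± 0.17, did pass in 4 of the 12 fits that left out 1 library. Of the 8 that were DEGs in F/M but not in Cb (*Irf9*, *Dhx58*, *Ifi27*, *Ifih1*, *Dtx3l*, *Ifitm3*, *Trim25* and *Sp100*), *Irf9* and *Dhx58* passed it. The adjusted p of *Ifi27* (7.2e-05), *Ifitm3* (0.071) and *Trim25* (0.068) also lay below the limit. Their differences of 1.44-fold, 1.28-fold and 1.28-fold did not reach 1.5-fold.

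In wild type mice, most members did not pass the test between areas. In Cb-N, 5 members were higher than in F/M-N (*Irf7*, *Irf9*, *Stat2*, *Dhx58* and *Samhd1*), against 19.2% of all genes, and 4 were lower (*Irf1*, *Irf8*, *Ifit2* and *Igtp*), against 23.2%. *Samhd1*, *Ifit2* and *Igtp* were named here after their values were seen. The median difference was 0.02. Leaving out 1 library moved it to between -0.004 and 0.12, and the count higher in Cb-N to between 3 and 7. In wild type mice 19 of 41 members had the higher mean CPM in F/M, and in *Tpp1^–/–* mice 30 of 41 did.

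**Figure D2:**
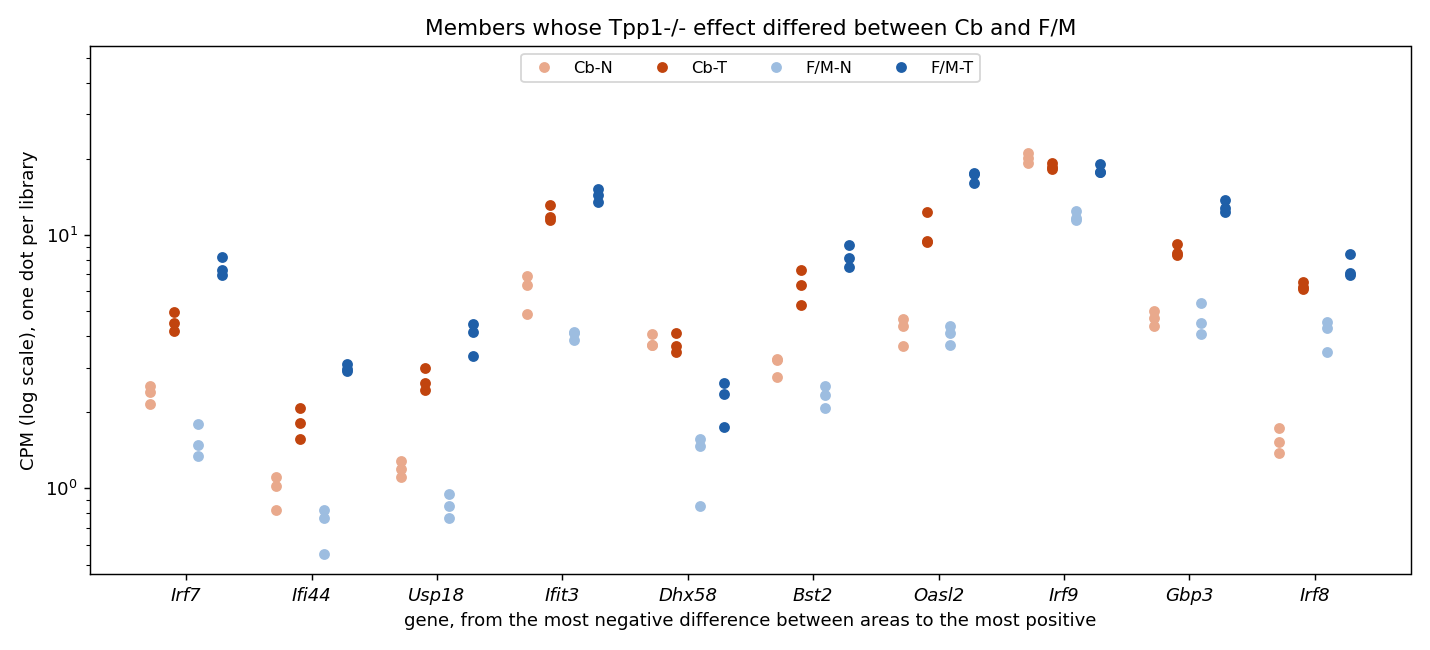
CPM in each library for the 10 members whose response differed between areas, from *Irf7* (difference -1.33) to *Irf8* (difference 1.16); each dot is 1 of 3 libraries per group and the axis is logarithmic.

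Microglial markers moved with the set, and more so in Cb. Of 20 markers, 17 were upregulated in Cb-T (median log2 fold change 1.80) and 11 in F/M-T (median 0.68), against 8.54% and 2.63% of all genes. By the interaction test 18 of 20 responded more strongly in Cb, against 6.41% of all genes. This was the opposite order to that of the set. In CPM, their summed level was 231, 233 and 243 in Cb-N, 843, 853 and 852 in Cb-T, 660, 659 and 677 in F/M-N, and 1049, 1026 and 1036 in F/M-T. With libraries scaled to the microglial markers, which lowers the median of all genes by construction, 1 member was called higher and 32 lower in Cb, where 0.964% and 96.4% of all genes were. In F/M 17 members were called higher and 1 lower, where 0.606% and 70.8% of all genes were. The part of the microglial markers in the result was not tested.

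Other signals also moved with genotype in Cb, and some in F/M. Of 15 hindbrain *Hox* genes, 10 were tested in Cb and all 10 were upregulated, against 8.54% of all genes. Their summed level was 0.488, 0.596 and 0.371 CPM in Cb-N, against 14.9, 14.2 and 14.2 in Cb-T, and it was at most 0.0847 CPM in any F/M library. The most abundant, *Hoxb5*, had 0 counts in Cb-N and 3.21, 2.33 and 2.07 CPM in Cb-T. Of 9 forebrain markers tested in Cb, 5 were upregulated. Of the 12 cerebellar markers, 11 had a negative log2 fold change in Cb and 11 an adjusted p below the limit, with a median of -0.27, although 0 were DEGs by edgeR. For comparison, an adjusted p below the limit, in either direction and whatever the fold change, was found for 57.6% of all genes tested in Cb and 27.2% of those in F/M. Of the remaining lists, the DEGs in Cb numbered 2 of 12 for astrocytes, 1 of 12 for oligodendrocytes, 1 of 5 for red blood cells, 2 of 3 tested for B cells, and 1 of 2 tested for T and NK cells. All of these were upregulated, beside 8.54% of all genes tested in Cb. More genes of these lists had an adjusted p below the limit in Cb without reaching 1.5-fold. In all, 11 of 12 astrocyte, 11 of 12 oligodendrocyte and 5 of 5 red blood cell genes were below it, with medians of 0.27, 0.33 and 0.49. In F/M the DEGs numbered 1 of 12 for astrocytes, 1 of 4 tested for B cells and 1 of 11 tested for the cerebellar markers. All of these were upregulated, beside 2.63% of all genes tested in F/M. An adjusted p below the limit was seen in F/M for 9 of 12 astrocyte, 4 of 12 oligodendrocyte and 5 of 5 red blood cell genes. In the monocyte and neutrophil list 1 of 4 tested genes, *Ltf*, was downregulated in Cb, against 2.66% of all genes. The endothelial, choroid plexus and meningeal lists held 0 DEGs by edgeR, although 8 of 12, 5 of 7 and 4 of 7 genes had an adjusted p below the limit in Cb without reaching 1.5-fold. In F/M these were 3 of 12, 2 of 7 and 1 of 7. The summed choroid plexus level, with *Ttr* the most abundant, was 604.6 to 644.1 CPM in F/M-N and 826.4 to 871.3 in F/M-T. In Cb it was 2257 to 2400 CPM in N and 2146 to 2281 in T. The part of these lists in the result was not tested.

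**Figure D3:**
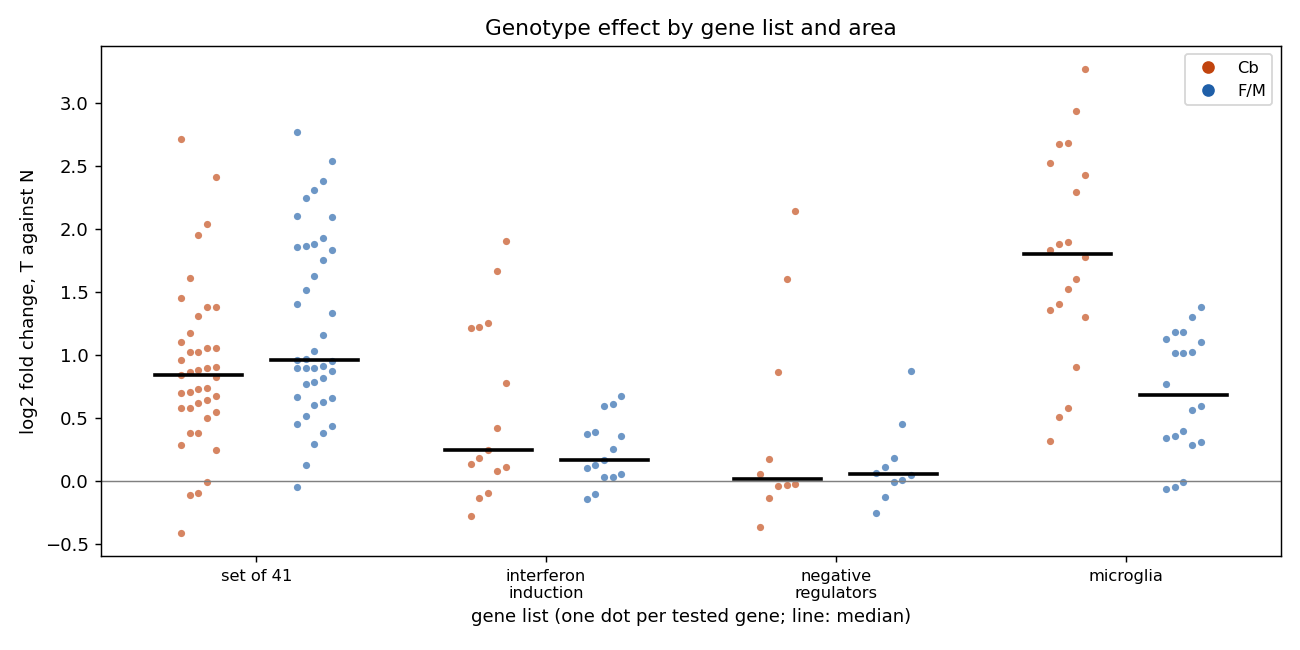
Log2 fold changes of the set, of 2 other interferon pathway lists and of the microglial markers in each area, with medians of 0.84 (Cb) and 0.96 (F/M) for the set and 1.80 and 0.68 for the microglial markers.

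Interferon transcripts themselves were near the limit of detection. Of 21 interferon ligand genes, 0 passed the filter in either area, so none was tested. *Ifng* had 0 counts in all 12 libraries, and *Ifnb1* was counted only in 1 F/M-T library, at 0.0438 CPM.

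Of 11 receptor and JAK-STAT genes, 0 were DEGs in Cb by edgeR, although 7 had an adjusted p below the limit, as did 57.6% of all genes. For *Ifnar1* and *Ifnar2*, the subunits of the type I receptor, the log2 fold changes were 0.02 ± 0.04 and 0.15 ± 0.09 in Cb and -0.01 ± 0.05 and 0.21 ± 0.08 in F/M.

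Among 15 genes that lead to interferon production, 6 were upregulated in Cb and 3 in F/M, against 8.54% and 2.63% of all genes. No test compared this list with the set. By the interaction test 5 of the 15 responded more in Cb, against 6.41% of all genes, and 0 responded less. The largest in Cb were *Tlr7* (1.90 ± 0.17, adjusted p 1.1e-12) and *Tlr9* (1.66 ± 0.29, adjusted p 4.9e-06), endosomal sensors of nucleic acids, and *Tmem173* (1.25 ± 0.17, adjusted p 5.2e-08), which encodes STING. In F/M these were *Tlr7* (0.67 ± 0.13, adjusted p 0.001), *Unc93b1* (0.61 ± 0.07, adjusted p 1.9e-06) and *Irf5* (0.59 ± 0.12, adjusted p 0.0013). The F/M calls of *Irf5*, *Tlr7* and *Unc93b1* were lost in 3, 1 and 1 of the 6 fits without 1 library, and those of *Irf5* and *Unc93b1* also in the fit of all 12 libraries. The differences between areas of *Irf5* and *Unc93b1* lost their calls in 2 and 4 of 12 fits without 1 library, and that of *Unc93b1* also with a mean count of at least 50. *Irf3*, the factor that first switches on interferon genes, had log2 fold changes of -0.28 ± 0.05 in Cb and -0.14 ± 0.07 in F/M (adjusted p 2.3e-05 and 0.13), neither reaching 1.5-fold.

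Of 10 tested negative regulators, 3 were upregulated in Cb, against 8.54% of all genes. They were the phosphatase gene *Ptpn6* (2.14 ± 0.16, adjusted p 2.2e-15), *Socs3* (1.60 ± 0.22, adjusted p 3.1e-08) and *Socs1* (0.86 ± 0.37, adjusted p 0.048). The *Socs1* call was lost with DESeq2 and in 2 of 6 fits without 1 library. In F/M, *Ptpn6* alone was upregulated (0.87 ± 0.11, adjusted p 8.9e-06), where 2.63% of all genes were. *Trex1*, an exonuclease gene of this list, had 0 counts in all 12 libraries and was not tested.

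The transcription factors of the set differed in the area where they changed. Of 5, 3 were upregulated in Cb and 3 in F/M, with *Irf7* and *Irf8* in both. *Irf7*, the factor that amplifies type I interferon responses, was at 2.53, 2.15 and 2.41 CPM in Cb-N, 4.51, 4.19 and 4.97 in Cb-T, 1.34, 1.80 and 1.48 in F/M-N, and 8.19, 6.95 and 7.28 in F/M-T. The log2 fold change was 0.96 ± 0.15 in Cb and 2.31 ± 0.14 in F/M (adjusted p 4.4e-07 and 4.3e-10), with a difference of -1.33 ± 0.21 (adjusted p 1.6e-05). *Irf7* was thus higher in Cb than in F/M in wild type mice and lower in Cb than in F/M in *Tpp1^–/–* mice, and no libraries of these groups overlapped. *Irf7* lies on chromosome 7 at 141262706-141266481, and *Tpp1* on the same chromosome at 105744811-105752235.

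*Irf8*, a factor of myeloid cells and microglia, responded more in Cb. It was at 1.73, 1.38 and 1.53 CPM in Cb-N, 6.24, 6.52 and 6.13 in Cb-T, 4.29, 3.47 and 4.53 in F/M-N, and 8.40, 6.95 and 7.10 in F/M-T. Its log2 fold change was 2.03 ± 0.15 in Cb and 0.90 ± 0.12 in F/M (adjusted p 1.5e-15 and 2.3e-05), with a difference of 1.16 ± 0.20 (adjusted p 4.4e-05). Among the wild type libraries, *Irf8* was lower in all Cb-N libraries than in any F/M-N library (-1.41 ± 0.16, adjusted p 5.4e-09), as were all 20 microglial markers in the corresponding test.

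*Irf9*, the DNA-binding partner of the STAT proteins, was at 20.1, 21.1 and 19.2 CPM in Cb-N and 18.3, 18.5 and 19.3 in Cb-T, where the libraries overlapped (-0.10 ± 0.06, adjusted p 0.21). In F/M it was at 11.4, 11.7 and 12.4 CPM in N and 17.7, 19.1 and 17.8 in T (0.65 ± 0.07, adjusted p 1.1e-06). The difference was -0.73 ± 0.09 (adjusted p 3.7e-07). Thus *Irf9* in F/M-T came close to the level that Cb had in either genotype. *Irf1*, a factor of the type II response, was upregulated in Cb (0.70 ± 0.12, adjusted p 3.9e-06), and its value in F/M was 0.38 ± 0.11 (adjusted p 0.015). *Stat2* had the highest level of the 41 members in Cb-N, at 16.7 CPM per kb, against 4.72 in F/M-N. Its log2 fold changes were -0.12 ± 0.03 in Cb (adjusted p 0.0029), with every T library below every N library, and 0.12 ± 0.05 in F/M (adjusted p 0.096).

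Of the 5 nucleic acid sensors, 3 were upregulated in Cb and 5 in F/M. *Ifi204*, of the family of DNA-binding PYHIN proteins, had the largest change of the set in Cb, from 0.133, 0.321 and 0.325 CPM in N to 1.77, 1.57 and 1.78 in T, and rose in F/M from 0.390, 0.225 and 0.212 CPM to 1.84, 1.45 and 1.5. Its log2 fold change was 2.71 ± 0.32 in Cb and 2.54 ± 0.31 in F/M (adjusted p 1.6e-09 and 6.1e-06), with groups well apart in both areas. The N groups held few reads of *Ifi204*, with totals of 17 counts in Cb-N and 19 in F/M-N, so the size of its change is not exact. *Zbp1*, a sensor of Z-form nucleic acid, rose by 1.95 ± 0.44 in Cb and 1.93 ± 0.41 in F/M (adjusted p 0.00023 and 0.0022), from levels below 0.4 CPM in every N library, and the F/M call was lost with DESeq2. The cytosolic RNA sensor gene *Ddx58* (RIG-I) rose by 0.67 ± 0.10 and 0.89 ± 0.09, with adjusted p 7.7e-08 and 6.5e-07. *Ifih1* (MDA5) was upregulated in F/M (0.66 ± 0.09, adjusted p 2.4e-05), with 0.38 ± 0.10 in Cb.

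*Dhx58* (LGP2), a regulator of these RNA sensors, was at 3.68, 3.67 and 4.08 CPM in Cb-N and 3.46, 4.11 and 3.65 in Cb-T, and at 1.48, 0.855 and 1.57 CPM in F/M-N and 2.36, 2.61 and 1.75 in F/M-T. The log2 fold change was -0.01 ± 0.14 in Cb and 0.81 ± 0.23 in F/M (adjusted p 0.95 and 0.014), with a difference of -0.81 ± 0.26 (adjusted p 0.022). The Cb groups overlapped, and every F/M-T library lay above the F/M-N libraries. The call of the difference was lost without F/M-N replicate 2, the library with the lowest value.

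The ISG15 group covers a ubiquitin-like modifier, the protease that removes it and a ligase, and 2 of 3 rose in Cb and 3 of 3 in F/M. *Isg15*, the modifier, was at 0.710, 0.688 and 0.881 CPM in Cb-N, 2.28, 2.50 and 2.11 in Cb-T, 0.607, 0.945 and 1.10 in F/M-N, and 3.94, 5.26 and 4.37 in F/M-T. It rose by 1.60 ± 0.23 in Cb and 2.38 ± 0.20 in F/M (adjusted p 9.1e-08 and 4e-08), without overlap between genotypes in either area. The difference of -0.76 ± 0.33 did not pass (adjusted p 0.1), but passed with RLE size factors, upper-quartile factors and in 2 of 12 fits without 1 library. *Usp18*, the protease that also blocks the type I receptor, was at 1.20, 1.28 and 1.11 CPM in Cb-N, 2.45, 2.62 and 2.98 in Cb-T, 0.954, 0.855 and 0.762 in F/M-N, and 3.33, 4.14 and 4.45 in F/M-T. It rose by 1.17 ± 0.20 (adjusted p 2.5e-06) and 2.24 ± 0.19 (adjusted p 6e-08), with a difference of -1.05 ± 0.28 (adjusted p 0.0071). The ligase gene *Trim25* rose in F/M (0.96 ± 0.10, adjusted p 4.3e-07). In Cb it had 0.58 ± 0.10, just short of 1.5-fold, and passed with library totals, upper-quartile factors, limma-voom and in 3 of 6 fits without 1 library.

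The 3 IFIT genes, whose products bind viral RNA, were all upregulated in Cb, and 2 of 3 in F/M. *Ifit3* was at 6.92, 6.33 and 4.87 CPM in Cb-N, 13.2, 11.5 and 11.8 in Cb-T, 4.12, 4.14 and 3.85 in F/M-N, and 13.5, 15.2 and 14.3 in F/M-T. It rose by 1.02 ± 0.10 in Cb and 1.86 ± 0.09 in F/M (adjusted p 1.6e-11 and 9.7e-12), with a difference of -0.83 ± 0.15 (adjusted p 0.00012). *Ifit1* rose by 1.38 ± 0.13 (adjusted p 2.3e-12) and 1.75 ± 0.11 (adjusted p 5.3e-10). *Ifit2* rose in Cb (0.88 ± 0.09, adjusted p 5.8e-11) and had 0.45 ± 0.07 in F/M. Wild type levels of *Ifit2* were lower in Cb, at 7.14, 5.87 and 7.47 CPM, than in F/M, at 14.8, 16.1 and 14.0 CPM.

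All 3 oligoadenylate synthetase genes, of the pathway that activates RNA decay by RNase L, were upregulated in both areas. *Oasl2* carried most of the counts, at 4.39, 4.68 and 3.66 CPM in Cb-N, 9.49, 9.42 and 12.3 in Cb-T, 4.38, 3.69 and 4.11 in F/M-N, and 17.6, 17.4 and 16.1 in F/M-T. It rose by 1.31 ± 0.12 in Cb and 2.10 ± 0.09 in F/M (adjusted p 6.9e-13 and 1.3e-12), with a difference of -0.77 ± 0.17 (adjusted p 0.00087). The wild type levels of *Oasl2* overlapped between areas, whereas every F/M-T library lay above every Cb-T library. *Oas1a* and *Oas2* (named after their values were seen) were weaker cases in Cb, with 0.84 ± 0.35 and 0.73 ± 0.31, adjusted p 0.043 and 0.046, and overlapping genotypes. Leaving out 1 library moved the Cb value of *Oas2* to between 0.38 and 1.37. Their Cb calls were lost with DESeq2 and in 4 and 3 of the 6 fits without 1 library, and the F/M call of *Oas1a* was lost with DESeq2.

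Among 5 other antiviral effectors, 3 were upregulated in Cb and 4 in F/M. *Mx1*, a GTPase that blocks viral nucleocapsids, was at 0, 0.229 and 0.139 CPM in Cb-N, 0.928, 0.523 and 0.538 in Cb-T, 0.217, 0.270 and 0.169 in F/M-N, and 1.36, 1.32 and 1.75 in F/M-T. Its log2 fold change of 2.77 ± 0.33 was the largest of the set in F/M (adjusted p 4.2e-06), with 2.41 ± 0.52 in Cb (adjusted p 0.00015). *Bst2* (tetherin), which holds budding virus at the membrane, was at 2.75, 3.21 and 3.25 CPM in Cb-N, 7.25, 5.27 and 6.38 in Cb-T, 2.08, 2.34 and 2.54 in F/M-N, and 9.10, 7.45 and 8.09 in F/M-T. It rose by 1.05 ± 0.14 (adjusted p 1.1e-08) and 1.85 ± 0.13 (adjusted p 2.5e-09), with a difference of -0.78 ± 0.20 (adjusted p 0.0045), and neither area showed overlap. *Eif2ak2* (PKR), a kinase activated by double-stranded RNA, rose by 0.62 ± 0.08 and 0.91 ± 0.09. *Ifitm3*, also on chromosome 7, rose in F/M (0.95 ± 0.10), with 0.58 ± 0.10 in Cb, a value that passed with library totals, upper-quartile factors and in 2 of 6 fits without 1 library.

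*Samhd1*, which encodes a hydrolase of deoxynucleotides, had the lowest log2 fold change of the set in both areas. It was at 38.3, 35.4 and 30.8 CPM in Cb-N and 26.2, 25.6 and 26.0 in Cb-T, every T library below every N library, with a log2 fold change of -0.41 ± 0.06 (adjusted p 6.5e-08) that did not reach 1.5-fold. In F/M it had -0.05 ± 0.06 (adjusted p 0.58).

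The 5 interferon-inducible GTPase genes, which act on the vacuoles of intracellular pathogens, were all upregulated in Cb and 4 of 5 in F/M. *Gbp3* was at 5.01, 4.72 and 4.36 CPM in Cb-N, 8.35, 9.22 and 8.53 in Cb-T, 4.08, 5.40 and 4.49 in F/M-N, and 13.7, 12.8 and 12.4 in F/M-T. It rose by 0.90 ± 0.11 (adjusted p 1.2e-09) and 1.51 ± 0.10 (adjusted p 1.2e-09), with a difference of -0.59 ± 0.15 (adjusted p 0.0036). The difference sat near the fold limit, and its call was lost without the filter on low counts and in 4 of 12 fits without 1 library. *Iigp1* rose by 1.45 ± 0.18 in Cb and 1.33 ± 0.16 in F/M (adjusted p 3.3e-09 and 4.1e-06), and *Igtp* by 1.06 ± 0.13 in Cb (adjusted p 7.2e-09), with 0.52 ± 0.11 in F/M. *Irgm1* and *Gbp7* rose by 0.86 ± 0.09 and 0.74 ± 0.11 in Cb and by 1.03 ± 0.07 and 0.87 ± 0.12 in F/M.

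The group around PARP9 and DTX3L, ADP-ribosyltransferases with a ubiquitin ligase partner, had smaller median changes than the set as a whole. Of 4 genes, 2 rose in Cb and 3 in F/M, with medians of 0.59 and 0.75, and 0 passed the interaction test of edgeR (1, *Parp9*, had an unadjusted p of 0.048). *Parp14* rose by 0.82 ± 0.10 in Cb and 0.89 ± 0.11 in F/M, and *Parp9* by 0.64 ± 0.11 and 0.97 ± 0.11. *Dtx3l*, at 0.60 ± 0.11 in F/M, lost its call in the fit of all 12 libraries and in 3 of 6 fits without 1 library.

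Of the 8 remaining members, 5 were upregulated in Cb and 7 in F/M. *Lgals3bp*, a secreted glycoprotein gene, was at 16.9, 17.3 and 17.5 CPM in Cb-N, 43.5, 45.9 and 44.0 in Cb-T, 16.7, 19.0 and 17.0 in F/M-N, and 61.8, 63.3 and 57.7 in F/M-T. It rose by 1.38 ± 0.05 in Cb and 1.83 ± 0.06 in F/M (adjusted p 3.4e-25 and 3.6e-15), and the spread within each group was small beside the change. *Ifi44* was at 1.02, 0.825 and 1.11 CPM in Cb-N, 1.81, 1.57 and 2.07 in Cb-T, 0.824, 0.765 and 0.550 in F/M-N, and 3.11, 2.90 and 2.95 in F/M-T. It rose by 0.89 ± 0.23 (adjusted p 0.0011) and 2.09 ± 0.21 (adjusted p 3.6e-07), with a difference of -1.18 ± 0.31 (adjusted p 0.0062). *Ifi27l2a* rose by 1.02 ± 0.28 in Cb and 1.88 ± 0.23 in F/M (adjusted p 6e-06), *Rtp4* by 1.10 ± 0.19 (adjusted p 6e-06) and 1.41 ± 0.14, and *Xaf1* by 0.69 ± 0.13 and 0.77 ± 0.11. *Ifi27* and *Sp100* were upregulated in F/M, by 0.79 ± 0.07 and 0.63 ± 0.12. In Cb they had 0.24 ± 0.06 and 0.375 ± 0.12 (adjusted p 0.00053 and 0.009). There too every T library lay above every N library, without reaching 1.5-fold.

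Besides *Stat2* and *Samhd1*, the members that were DEGs in neither area were *Ifi35* and *Parp12*. *Parp12* had 0.49 ± 0.06 in Cb and 0.43 ± 0.07 in F/M (adjusted p 1.1e-09 and 0.00013), with T above N in all libraries but less than a 1.5-fold change. *Ifi35* had 0.28 ± 0.16 and 0.29 ± 0.16 (adjusted p 0.14 and 0.23).

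A further list of 46 interferon-stimulated genes outside the set gave 22 DEGs of 40 tested in Cb and 27 of 39 in F/M, all upregulated. Of all genes tested, 8.54% were upregulated in Cb and 2.63% in F/M. The largest were the chemokine genes *Cxcl9* (5.09 ± 0.72, adjusted p 1e-07) and *Cxcl10* (2.93 ± 0.30, adjusted p 4.9e-11) and the PYHIN gene *Ifi207* (1.87 ± 0.31, adjusted p 1.6e-06) in Cb. *Cxcl9* had a total of 1 count in Cb-N, so the size of its change is not exact. In F/M the largest were *Cxcl10* (4.14 ± 0.38, adjusted p 1.3e-07), *Ifi207* (2.97 ± 0.37, adjusted p 7.6e-06) and *Ifit3b* (1.63 ± 0.12, adjusted p 7.4e-09). By the interaction test *Ifit3b* responded less in Cb, and *Herc6* (named after its values were seen) responded more (difference 0.59 ± 0.13, adjusted p 0.0015). The *Herc6* call sat near the fold limit and was lost with RLE size factors, upper-quartile factors, DESeq2 and a mean count of at least 50, and in 7 of 12 fits without 1 library.

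Promoters were described for the 29 members with an entry in the RefSeq promoter table, from 250 bases before to 50 bases after the transcription start. The ISRE core (GAAANNGAAA on either strand) was present in 14 of 29 members (48.3%), against 1079 of 27025 genes (3.99%). The GAS core (TTCNNNGAA) was present in 11 of 29 (37.9%), against 9.55% of all genes. Of the 14 members with an ISRE core, 11 were upregulated in Cb and 12 in F/M, with median log2 fold changes of 0.85 and 0.99. Of the 15 without, 8 and 10 were upregulated, with medians of 0.69 and 0.65. With the GAS core, 8 of 11 members were upregulated in Cb and 6 of 11 in F/M (medians 0.74 and 0.87), and without it 11 of 18 and 16 of 18 (medians 0.78 and 0.99). Differences between members with and without a core were not tested. A match describes the sequence and was not tested for binding. *Ifi27*, *Ifi27l2a*, *Dhx58*, *Oas2*, *Rtp4*, *Usp18*, *Zbp1*, *Parp9*, *Parp14*, *Mx1*, *Iigp1* and *Ifi204* had no entry.

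The 6 members with an ISRE core and the largest log2 fold changes in Cb are given with their promoters, to show where the core lies in genes that rose. Each is written along the strand of its gene in build GRCm38.p6, and capitals mark the ISRE core. *Isg15* (chr4:156200769-156201068, - strand) holds 3 overlapping cores, the first starting 78 bases before the start. *Ifit1* (chr19:34640639-34640938, + strand) and *Ifit3* (chr19:34583279-34583578, + strand) each hold 2 separate cores, starting 104 and 85 bases before the start in *Ifit1* and 156 and 122 in *Ifit3*. *Igtp* (chr11:58199306-58199605, + strand) holds 1, starting 34 bases before the start. *Bst2* (chr8:71537423-71537722, - strand) and *Gbp3* (chr3:142559794-142560093, + strand) each hold 2 overlapping cores, the first starting 130 and 45 bases before the start.
Isg15: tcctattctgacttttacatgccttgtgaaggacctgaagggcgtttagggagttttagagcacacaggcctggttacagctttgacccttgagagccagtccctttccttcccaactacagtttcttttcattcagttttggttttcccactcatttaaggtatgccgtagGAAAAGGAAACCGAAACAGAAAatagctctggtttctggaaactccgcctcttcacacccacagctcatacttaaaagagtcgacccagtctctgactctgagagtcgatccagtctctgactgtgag
Ifit1: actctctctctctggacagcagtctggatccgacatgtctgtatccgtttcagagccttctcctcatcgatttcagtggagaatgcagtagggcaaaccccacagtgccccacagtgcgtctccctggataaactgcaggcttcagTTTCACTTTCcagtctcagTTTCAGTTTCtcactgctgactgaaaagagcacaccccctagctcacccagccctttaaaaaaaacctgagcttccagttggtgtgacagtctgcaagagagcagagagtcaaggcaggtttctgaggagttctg
Igtp: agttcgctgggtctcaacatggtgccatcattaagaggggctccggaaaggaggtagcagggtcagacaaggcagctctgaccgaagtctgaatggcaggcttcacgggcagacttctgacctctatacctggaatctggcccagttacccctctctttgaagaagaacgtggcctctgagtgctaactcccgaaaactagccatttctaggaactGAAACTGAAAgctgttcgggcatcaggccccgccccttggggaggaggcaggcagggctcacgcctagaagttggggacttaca
Bst2: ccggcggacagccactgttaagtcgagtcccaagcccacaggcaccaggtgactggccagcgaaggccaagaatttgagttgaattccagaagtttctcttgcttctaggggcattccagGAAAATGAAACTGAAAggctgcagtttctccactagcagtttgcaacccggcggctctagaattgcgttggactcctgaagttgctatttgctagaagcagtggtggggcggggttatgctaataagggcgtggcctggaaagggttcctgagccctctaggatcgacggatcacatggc
Ifit3: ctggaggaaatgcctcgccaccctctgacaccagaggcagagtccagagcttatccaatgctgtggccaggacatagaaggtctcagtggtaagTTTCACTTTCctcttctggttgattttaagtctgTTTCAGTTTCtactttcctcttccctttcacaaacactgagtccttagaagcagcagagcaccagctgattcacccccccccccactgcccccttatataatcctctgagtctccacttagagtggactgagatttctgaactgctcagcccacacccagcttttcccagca
Gbp3: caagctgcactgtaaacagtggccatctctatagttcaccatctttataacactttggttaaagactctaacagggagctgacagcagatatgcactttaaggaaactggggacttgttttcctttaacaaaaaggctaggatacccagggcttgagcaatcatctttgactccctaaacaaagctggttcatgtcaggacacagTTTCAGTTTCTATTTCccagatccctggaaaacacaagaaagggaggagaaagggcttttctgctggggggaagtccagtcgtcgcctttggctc

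The identity of some counts is uncertain, since neither the strand setting nor the handling of reads with several matches was given in the sources used here. The exons of *Parp9* and *Dtx3l* share 458 bases on opposite strands, those of *Igtp* share 162 bases with *Irgm2* on the same strand, and those of *Irf9* share 123 bases with *Rnf31*. Reads of the close paralogs *Ifit3* and *Ifit3b*, *Oas1a* and *Oas1g*, *Gbp3* and *Gbp7*, and *Ifi204* with its family may be assigned to either gene.

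Each value rests on 3 libraries per group, at a single age and in males, so smaller changes may have been missed. Members with few counts (*Mx1*, *Zbp1*, *Ifi204* and *Oas1a*) have the widest errors.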

How the data were processed

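Gene counts were analysed for 12 libraries, with total counts of 21428379 to 24458189. Per the deposited files and labels, the authors prepared stranded mRNA libraries, sequenced single-end reads, aligned them with STAR to mm10 and deposited raw counts per gene from featureCounts. Groups followed the sample titles. Counts were normalized with TMM in edgeR 4.0.16 (R 4.3.3), filtered with filterByExpr (minimum count 10, minimum total count 15), and tested with the quasi-likelihood F-test, with p-values adjusted by Benjamini-Hochberg over all genes tested. DEGs had an adjusted p below 0.1 and a change of at least 1.5-fold. Genotype was tested within each area in 6 libraries. The difference between areas and that between Cb-N and F/M-N were tested in a fit of all 12 libraries. The code was tested on simulated data. CPM are TMM-normalized, and CPM per kb divide by the exon length. At this depth 3 counts correspond to 0.1208 to 0.1391 CPM. The motif cores were searched in promoters of 300 bases.

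Members and gene lists were chosen with earlier results of these data known, so no p-value was computed for the set or any list as a whole, and lists are described by counts and medians. The genes named with values were the 5 transcription factors, the 12 non-overlapping DEGs with the largest change per area, up to 12 members with a called difference between areas, every member not called in either area, and, of the other pathway lists, the 3 largest DEGs per area, those called lower, and *Irf3*, *Ifnar1*, *Ifnar2*, *Ifnb1* and *Ifng*. Of the tissue and cell type lists, the most abundant gene was named for some. Other members are given by role. Promoters were printed for 6 members with an ISRE core. Alternatives covered normalization (RLE, upper-quartile, library totals, microglial markers), filters, thresholds, DESeq2 1.42.0, limma-voom (limma 3.58.1), calls by at least 2 of the 3 tools, a fit of all 12 libraries, a replicate block, motif choices, and leaving out each library.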

Additional observations from a re-analysis of the deposited data

Results flagged for a closer look

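The response to genotype differed between areas, by the test of the difference itself, for 10 members of the set. The log2 fold change in Cb minus that in F/M was -1.33 for *Irf7*, -1.18 for *Ifi44*, -1.05 for *Usp18*, -0.83 for *Ifit3*, -0.81 for *Dhx58*, -0.78 for *Bst2*, -0.77 for *Oasl2*, -0.73 for *Irf9*, -0.59 for *Gbp3* and 1.16 for *Irf8*. Among the genes named from other lists, the same test gave -1.03 for *Ifit3b*, a weaker response in Cb. It gave positive differences, a stronger response in Cb, for *Socs3* (1.61), *Tlr9* (1.29), *Ptpn6* (1.29), *Tlr7* (1.25), *Tmem173* (0.90), *Irf5* (0.64), *Unc93b1* (0.63) and *Herc6* (0.59). No group had the 4 samples needed to test a single library as set apart from the rest.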

How the results depend on the processing

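Apart from scaling to microglial markers, the alternatives kept the direction of the set in both areas: 20 to 36 members were called higher in Cb (29 by the main settings), 26 to 39 in F/M (34), and 8 to 15 were called weaker in Cb than in F/M (9). DESeq2 gave 27, 32 and 9, and limma-voom 30, 34 and 9. A mean count of at least 50, which leaves fewer members, gave a Cb median of 0.7. With no fold limit, by construction, more were called: 2 lower in Cb, 3 stronger and 15 weaker in Cb by the interaction, and 13 higher and 8 lower in Cb-N than in F/M-N. The median of that wild type difference (0.017) moved to 0.006 with RLE factors, DESeq2 or a mean count of at least 50, to 0.077 with library totals and to 0.036 with upper-quartile factors; the cause was not tested. The share of genes with the ISRE core was 0.944% with 1 more fixed base and 3.64% among tested genes, and that with the GAS core 8.14% among tested genes, since these change which matches or genes are counted.

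Scaling to microglial markers moved the median of all genes to -1.75 in Cb, -0.68 in F/M, -1.07 for the interaction and 1.58 for Cb-N against F/M-N, and members moved with it by construction. In Cb, 1 member was called higher and 32 lower (0.964% and 96.4% of all genes), with a median of -0.91; in F/M, 17 higher and 1 lower (0.606% and 70.8%), with a median of 0.27. By the interaction 0 members were called stronger in Cb by edgeR and 37 weaker (1.34% and 84.4% of all genes), with a median of -1.40. In Cb-N against F/M-N, 38 were higher and 0 lower (83.3% and 6.92%), with a median of 1.59. Median levels were 2.62 CPM per kb in Cb-N, 1.25 in Cb-T, 0.916 in F/M-N and 1.14 in F/M-T. Signs turned in Cb for Ifnar1 -1.75, Ifnar2 -1.62, Ifi27 -1.53, Ifi35 -1.48, Sp100 -1.39, Ifih1 -1.39, Parp12 -1.27, Dtx3l -1.22, Ifitm3 -1.19, Trim25 -1.19, Ifit3b -1.19, Eif2ak2 -1.15, Parp9 -1.12, Herc6 -1.10, Ddx58 -1.09, Xaf1 -1.07, Irf1 -1.06, Oas2 -1.03, Gbp7 -1.03, Parp14 -0.94, Oas1a -0.91, Irgm1 -0.90, Socs1 -0.89, Ifit2 -0.88, Ifi44 -0.87, Gbp3 -0.86, Irf7 -0.81, Ifit3 -0.75, Ifi27l2a -0.74, Bst2 -0.71, Igtp -0.71, Rtp4 -0.66, Usp18 -0.59, Irf5 -0.55, Unc93b1 -0.55, Tmem173 -0.52, Oasl2 -0.46, Lgals3bp -0.39, Ifit1 -0.39, Iigp1 -0.31, Socs3 -0.16, Isg15 -0.15 and Tlr9 -0.092. They turned in F/M for Socs3 -0.68, Herc6 -0.60, Irf5 -0.094, Dtx3l -0.083, Unc93b1 -0.077, Sp100 -0.059, Irf9 -0.034, Ifih1 -0.026 and Tlr7 -0.018, and by the interaction for Ifi35 -1.09, Ifnar1 -1.05, Parp12 -1.02, Iigp1 -0.95, Irf1 -0.75, Ifit2 -0.65, Herc6 -0.51, Unc93b1 -0.47, Irf5 -0.46 and Tmem173 -0.20.

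Leaving out 1 library at a time gave 28 to 30 members higher and 0 lower in Cb (median 0.774 to 0.854), 33 to 34 higher and 0 lower in F/M (0.951 to 1.002), 1 to 2 stronger and 8 to 10 weaker in Cb by the interaction (-0.389 to -0.255), and 3 to 7 higher and 4 to 6 lower in Cb-N than in F/M-N (-0.004 to 0.12, a turn of sign in 1 fit). The cause was not tested.

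With the replicate block, 29 members were called in Cb, 34 in F/M, and 1 stronger and 10 weaker in Cb by the interaction. Between libraries of the same replicate number, deviations from the group mean had correlations of -0.016 to 0.062 over the genes tested. With 3 libraries per group, these values cannot tell whether such libraries share a mouse.

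Genes with few counts limit precision at this depth, and *Mx1*, *Zbp1*, *Ifi204* and *Oas1a* rest on few reads per N library.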
